A study of Mus musculus with 18 samples.

Results

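Abca1 and Abcg1 encode the main cholesterol exporters of macrophages. They were followed through RNA sequencing of CD11b-selected brain cells, the fraction that holds microglia and macrophages. The 2 genes were found by their Ensembl identifiers (ENSMUSG00000015243 for Abca1 and ENSMUSG00000024030 for Abcg1) among the 57010 genes of the deposited count table, and both were counted in all 18 libraries. The mice were wild-type males in 6 groups of 3 libraries: young bexarotene, young vehicle, aged bexarotene, aged vehicle, aged stroke bexarotene and aged stroke vehicle. Young mice were 2 to 4 months old and aged mice 18 to 20 months old. The stroke groups had an occlusion of the middle cerebral artery. Bexarotene, which activates retinoid X receptors (RXR), was injected into the peritoneum at 5 mg/kg, starting 24 hours after surgery and repeated daily for 2 days, and vehicle mice received 3% DMSO in saline. Cells of all groups were taken on day 3 after depletion of Ly6G-positive cells. The labels do not say what surgery, sham or none, the groups without stroke received. They number the libraries as biological replicates without tying them to single mice, so the p-values measure the spread between these libraries.

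Abca1 is a full ABC transporter of the plasma membrane that passes cholesterol and phospholipid to lipid-poor apolipoproteins. Abcg1 works as a dimer and feeds cholesterol to lipoprotein particles that already carry lipid. In macrophages both genes are classic targets of the liver X receptors LXRα (Nr1h3) and LXRβ (Nr1h2), which sense oxysterols and bind DNA together with RXR. The LXR-RXR pair can be switched on by a ligand of either partner. In the brain, microglia and macrophages that take up myelin or cell debris use this export route to clear the cholesterol they ingest, and ApoE is the usual acceptor.

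LXR and RXR bind to DR4 elements, direct repeats of a hexamer spaced by 4 bases. The Abca1 promoter is shown because its DR4 element is the textbook LXR-RXR site of this gene. The RefSeq sequence below runs over the 250 bases before the annotated start, chr4:53159896-53160145 (GRCm38.p6, minus strand), 5′ to 3′, with the match to a relaxed DR4 pattern in capitals.
Abca1 promoter: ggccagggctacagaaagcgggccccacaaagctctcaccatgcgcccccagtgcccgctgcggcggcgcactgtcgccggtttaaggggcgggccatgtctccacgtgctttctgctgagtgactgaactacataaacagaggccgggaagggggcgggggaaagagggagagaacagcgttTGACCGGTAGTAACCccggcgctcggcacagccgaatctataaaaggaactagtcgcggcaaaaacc
On the opposite strand the capitals read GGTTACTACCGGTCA. They lie at positions -67 to -53 from the start and match a relaxed DR4 pattern, GGTNA repeated directly with 5 bases between the copies, which was written with this promoter in view. Searched on both strands of windows from 250 bases before to 50 after a start, that pattern was found in 236 of 32851 RefSeq promoters (0.718%). The stricter consensus, AGGTCA repeated directly with 4 bases between, was found in 5 (0.0152%), and Abca1 was not among them. One of the 3 listed promoters of Srebf1, the lipogenic regulator that is also an LXR target, held the related match GGTTACTGGCGGTCA at -182 to -168. No match lay in the listed promoters of Arl4c, Mylip, Apoe, Nr1h3, Camkk1, Eepd1, Gm34466, Epha2 and Rasgef1b. The RefSeq list used here held no promoter for Abcg1 or 1810043G02Rik, so neither was searched. Patterns for other RXR dimers, the same GGTNA repeats with 2 bases (DR1) or 6 bases (DR5) between the copies, occurred in 1.10% and 0.633% of promoters and in none of the promoters named here.

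The 2 transcripts also share sites for miR-33, a microRNA encoded within the Srebf2 gene that represses cholesterol export in mice. The mature RefSeq sequence is shown with its seed, bases 2 to 8, in capitals, and the site stretches of the 3′ untranslated regions (GENCODE M21) are shown with the seed matches CAATGCA in capitals.
mmu-miR-33-5p: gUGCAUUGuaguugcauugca
Abca1 3′ UTR, bases 131 to 160: tattCAATGCAATGCActtCAATGCAacga
Abcg1 3′ UTR, bases 713 to 737: aacgCAATGCAacgCAATGCAgaca
Abca1 held 3 matches, 2 of which overlap, and Abcg1 held 2. At least 1 match was found in 7.11% of 21028 protein-coding genes, at least 2 in 0.656% and at least 3 in 0.0713%. Both exporters have long 3′ untranslated regions. Among the 2514 genes with one of at least 3156 bases, the length in Abca1, the shares were 22.8%, 3.82% and 0.477%. The miRNA itself was not measured in these libraries.

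Library totals were 7582511 to 11852638 counts without stroke and 16206144 to 29359943 with stroke. Abca1 was covered by 3150 to 18206 counts per library and Abcg1 by 776 to 7734. Levels are given in CPM, the usual depth-normalised count, after TMM scaling (trimmed mean of M-values). Levels of cell type markers and their sums are the exception, given as CPM of library totals without TMM scaling. Microglial markers were abundant in all groups. The summed level of 12 such genes was 50937 to 68757 CPM without stroke and 21078 to 28035 CPM with stroke. The sum of 12 markers of infiltrating monocytes and macrophages was 3017 to 5521 CPM with stroke and 59.4 to 274 CPM without, and that of 10 neuronal markers was 1.09 to 5.48 CPM. In bulk libraries fewer cells of a type and less RNA per cell cannot be told apart.

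Bexarotene raised both exporters in young mice, Abcg1 the more steeply. Abca1 was at 1056, 858 and 1101 CPM in the young bexarotene libraries, against 568, 425 and 403 CPM in the young vehicle libraries. Abcg1 was at 428, 466 and 563 CPM in the young bexarotene libraries, against 102, 105 and 104 CPM in the young vehicle libraries. Every bexarotene library was above every vehicle library for both genes, as it was in 7.09% of all 15528 genes tested. The means were 1005 ± 129 and 465 ± 89.9 CPM for Abca1 and 486 ± 69.2 and 103 ± 1.66 CPM for Abcg1 (bexarotene and vehicle, SD, n = 3 each). Abcg1 was 4.70-fold higher (log2 fold change 2.23 ± 0.14 SE, adjusted p = 3.21e-08, edgeR quasi-likelihood test with Benjamini-Hochberg adjustment, BH) and ranked 1 by p among all genes. Abca1 was 2.16-fold higher (1.11 ± 0.14, adjusted p = 4.72e-04, edgeR with BH) and ranked 9. A gene was called at an adjusted p under 0.05, and 0.419% of all genes tested were called higher in this comparison.

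**Figure D1:**
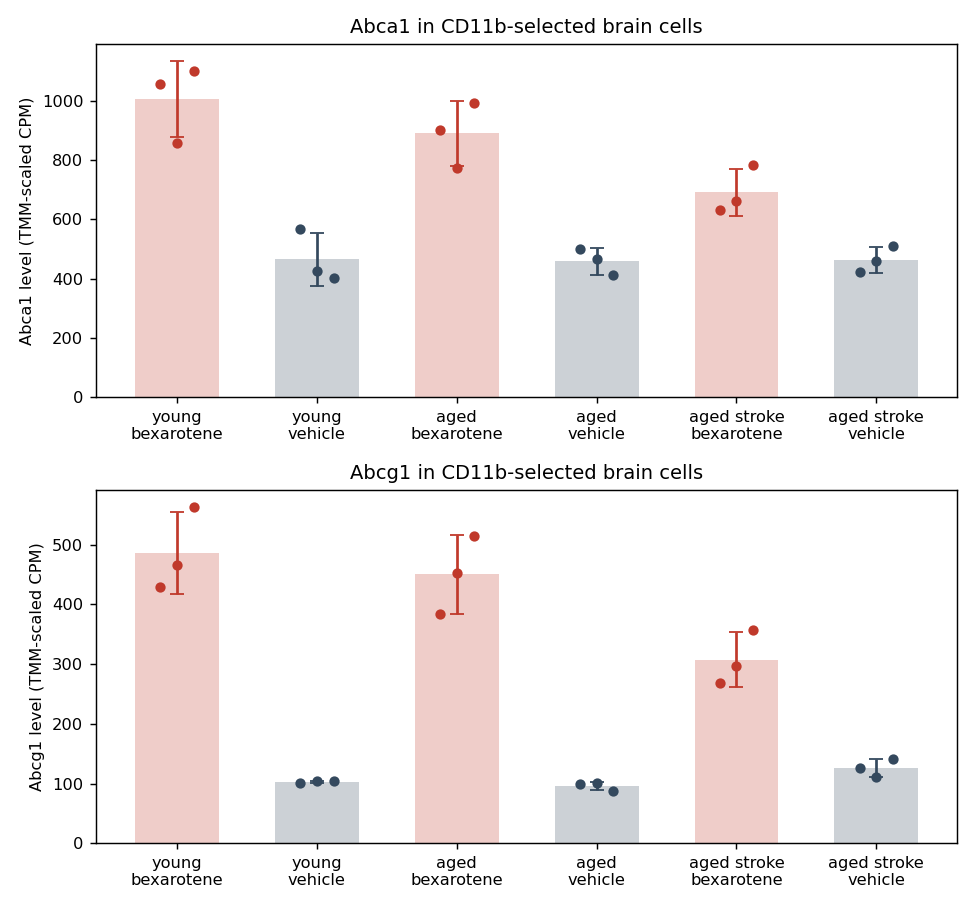
Abca1 (top) and Abcg1 (bottom) in TMM-scaled CPM, with 1 point per library, bars at the group mean and lines for the SD over 3 libraries. In each of the 3 settings all bexarotene points sit above all vehicle points for both genes, with means of 1005, 889 and 691 CPM against 465, 459 and 464 CPM for Abca1.

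Aged mice without stroke gave nearly the same picture. Abca1 was at 901, 774 and 992 CPM in the aged bexarotene libraries, against 500, 466 and 410 CPM in the aged vehicle libraries. Abcg1 was at 383, 453 and 514 CPM in the aged bexarotene libraries, against 99.4, 100.3 and 87.7 CPM in the aged vehicle libraries. The groups did not overlap for either gene, with bexarotene higher, which held for 6.47% of all genes. Abcg1 was 4.70-fold higher (2.23 ± 0.14, adjusted p = 3.18e-08, edgeR with BH) and again ranked 1 by p. Abca1 was 1.94-fold higher (0.96 ± 0.14, adjusted p = 0.00366, edgeR with BH) and ranked 9. In this comparison 0.238% of all genes tested were called higher. Without aged vehicle replicate 3 the Abca1 value was 0.88 and missed the threshold (adjusted p = 0.0519, edgeR with BH). Over all alternatives its adjusted p ran from 1.39e-09 to 0.0519.

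After stroke the bexarotene libraries were again the higher ones, by a smaller step. Abca1 was at 631, 661 and 781 CPM in the aged stroke bexarotene libraries, against 423, 458 and 510 CPM in the aged stroke vehicle libraries. Abcg1 was at 268, 297 and 357 CPM in the aged stroke bexarotene libraries, against 126, 112 and 141 CPM in the aged stroke vehicle libraries. The groups did not overlap for either gene, with bexarotene higher, as for 5.81% of all genes. Abcg1 was 2.44-fold higher (1.28 ± 0.13, adjusted p = 1.57e-04, edgeR with BH), ranked 1 by p, and was among the 0.0515% of genes called higher. Abca1 had a log2 fold change of 0.58 ± 0.14 (95% interval 0.28 to 0.87) and was not called by edgeR (adjusted p = 0.227 with BH). DESeq2 called it at nearly the same size (0.57, adjusted p = 0.0170), over all alternatives its adjusted p ran from 0.00289 to 0.598, and the authors' deposited table lists Abca1 for this comparison with a log2 fold change of 0.52 (adjusted p = 0.00329).

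Summed markers of other cells differed with treatment in some settings. EdgeR called 0 genes of the astrocyte, monocyte, neutrophil, border-associated macrophage and choroid plexus lists with bexarotene in any setting. It called 0.509%, 0.258% and 0.058% of all genes tested in young, aged and aged stroke mice. At such shares 0 calls do not show that the markers were unchanged. In young mice the sum of 10 astrocyte markers was 589 to 950 CPM with bexarotene and 324 to 427 CPM with vehicle. Nearly all of it was the glutamate transporter gene Slc1a3 (550 to 916 and 298 to 380 CPM), and the remaining astrocyte markers, Gfap and Aqp4 among them, summed to 12.7 to 38.7 CPM with bexarotene and 19.6 to 47.1 CPM with vehicle. In aged mice without stroke the astrocyte sum was 499 to 760 CPM with bexarotene and 341 to 480 CPM with vehicle. Slc1a3 made up nearly all of it here too (468 to 750 and 319 to 458 CPM), and the other astrocyte markers summed to 10.4 to 31.2 CPM with bexarotene and 21.6 to 44.6 CPM with vehicle. There the sum of 12 neutrophil markers was also higher, 1068 to 2176 CPM with bexarotene and 669 to 998 CPM with vehicle, as was the monocyte sum, 157 to 274 and 79.9 to 135 CPM. After stroke the sum of 12 markers of border-associated macrophages was 1067 to 1307 CPM with bexarotene and 1368 to 1530 CPM with vehicle. The sum of 10 choroid plexus markers, which varied widely between libraries of every group, was 136 to 714 CPM with bexarotene and 949 to 3185 CPM with vehicle after stroke, also without overlap. Astrocyte markers other than Slc1a3 were at 18.4 to 20.9 and 28.4 to 53.5 CPM there. The part of these cells in the levels of Abca1 and Abcg1 was not tested.

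The size of the bexarotene effect was next compared between settings, as the difference of log2 fold changes within the same fit. Between aged and young mice the difference was 0.00 for Abcg1 (95% interval -0.37 to 0.37) and -0.16 for Abca1 (-0.57 to 0.26), neither called by edgeR. Between aged mice with and without stroke the difference was -0.95 ± 0.18 for Abcg1 (-1.33 to -0.56) and -0.38 ± 0.20 for Abca1 (-0.79 to 0.03). The Abcg1 difference had the lowest p of all 15528 genes (unadjusted p = 6.03e-05), but its adjusted p was 0.535 (edgeR with BH). DESeq2 called it (-0.94, adjusted p = 0.0224), and over all alternatives the adjusted p ran from 2.50e-04 to 1.00. EdgeR called 0 genes for this difference, while DESeq2 called 9 and limma voom called 0. By edgeR 638 genes had an unadjusted p under 0.05, 4.11% of all genes tested, a share no higher than that threshold. The smaller step of Abcg1 in stroke mice had 2 sides, since its level was lower with bexarotene and higher with vehicle than in mice without stroke.

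**Figure D2:**
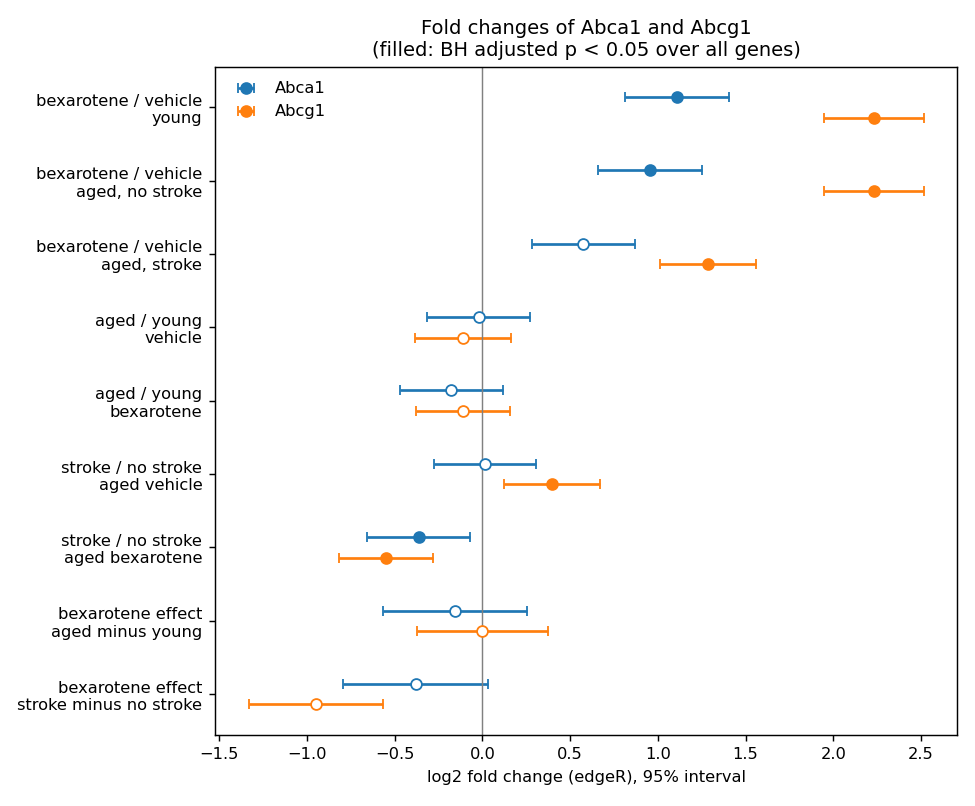
Log2 fold changes of Abca1 and Abcg1 in 7 comparisons and 2 differences of the bexarotene effect, from the edgeR fit, with 95% intervals as bars and filled points where the adjusted p was under 0.05. Abcg1 lies near 2.23 with bexarotene in young and in aged mice and at 1.28 after stroke, and the Abca1 points lie at 1.11, 0.96 and 0.58.

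In vehicle mice stroke raised Abcg1 slightly, and Abca1 did not pass the test. The mean of Abca1 was 464 ± 44.0 CPM in aged stroke vehicle and 459 ± 45.2 CPM in aged vehicle libraries (SD, n = 3 each), with overlapping groups, a log2 fold change of 0.02 (-0.28 to 0.31) and an adjusted p of 0.937 by edgeR with BH. For Abcg1 the aged stroke vehicle libraries averaged 126 ± 14.7 CPM and the aged vehicle libraries 95.8 ± 7.02 CPM. Its groups did not overlap, which held, with stroke higher, for 31% of all genes. It was called higher (0.40 ± 0.13, adjusted p = 0.0169, edgeR with BH), as were 27.2% of all genes tested. The call was lost without aged vehicle replicate 3 (0.31, adjusted p = 0.108), without aged stroke vehicle replicate 3 (0.32, adjusted p = 0.0869) and with upper quartile scaling (0.26, adjusted p = 0.107), all by edgeR with BH, and the adjusted p over all alternatives ran from 0.00751 to 0.108. Upper quartile scaling put the median of all genes at -0.12, against 0.02 with TMM, so relative to that median Abcg1 was higher under both.

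With bexarotene on board, stroke libraries held less of both transcripts. Abca1 averaged 691 ± 79.6 CPM in aged stroke bexarotene and 889 ± 110 CPM in aged bexarotene libraries, and Abcg1 averaged 308 ± 45.3 and 450 ± 65.5 CPM (SD, n = 3 each). The groups did not overlap for Abcg1, which held, with stroke lower, for 25% of all genes, whereas those of Abca1 overlapped. Abcg1 was called lower (-0.55 ± 0.13, adjusted p = 0.00170, edgeR with BH), and so was Abca1 (-0.36 ± 0.14, adjusted p = 0.0382), as were 21.2% of all genes tested. The Abca1 call was lost without aged bexarotene replicate 1 or 3 (-0.35, adjusted p = 0.0868, and -0.28, adjusted p = 0.163) and without aged stroke bexarotene replicate 1 or 2 (-0.31, adjusted p = 0.125, and -0.33, adjusted p = 0.110), by edgeR with BH, while over all alternatives the adjusted p ran from 0.00540 to 0.163. Beside both stroke comparisons stands the change in the cells collected. In vehicle libraries the microglial sum was 23166 to 26165 CPM with stroke and 55513 to 56528 CPM without, and the monocyte sum was 3526 to 5124 CPM with stroke and 79.9 to 135 CPM without. In bexarotene libraries the microglial sum was 21078 to 28035 CPM with stroke and 50937 to 56150 CPM without, and the monocyte sum was 3017 to 5521 and 157 to 274 CPM. In vehicle libraries border-associated macrophage markers were at 1368 to 1530 CPM with stroke and 851 to 971 CPM without, with 5 of 12 called higher and 1 lower. Neutrophil markers were at 1054 to 2612 CPM with stroke and 669 to 998 CPM without, with 5 of 12 called higher. Of all genes tested 27.2% were called higher and 21.1% lower in vehicle mice. In bexarotene libraries both sums overlapped. Border-associated macrophage markers were at 1067 to 1307 CPM with stroke and 969 to 1145 CPM without, with 4 of 12 called higher and 5 lower. Neutrophil markers were at 973 to 3688 and 1068 to 2176 CPM, with 1 of 12 called higher and 1 lower. The shares over all genes were 26.8% higher and 21.2% lower there. The astrocyte sum was lower with stroke without overlap. It was 117 to 164 against 341 to 480 CPM in vehicle and 104 to 224 against 499 to 760 CPM in bexarotene libraries. Slc1a3 carried this fall, at 87.3 to 112 against 319 to 458 CPM in vehicle and 83.4 to 203 against 468 to 750 CPM in bexarotene libraries. The other astrocyte markers overlapped. They summed to 28.4 to 53.5 CPM with stroke and 21.6 to 44.6 CPM without in vehicle libraries, and 18.4 to 20.9 and 10.4 to 31.2 CPM in bexarotene libraries. How much of either exporter's level came from each cell type was not tested.

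Age moved neither exporter past the threshold. In vehicle mice Abca1 had a log2 fold change of -0.02 (-0.31 to 0.27, adjusted p = 0.983, edgeR with BH) and Abcg1 of -0.11 (-0.39 to 0.16, adjusted p = 0.810). The Abcg1 libraries did not overlap, at 87.7 to 100.3 CPM in aged vehicle and 102 to 105 CPM in young vehicle mice, and 8.75% of all genes were likewise lower without overlap. In bexarotene mice the log2 fold changes were -0.18 (-0.47 to 0.12) for Abca1 and -0.11 (-0.38 to 0.16) for Abcg1, with overlapping groups and adjusted p of 0.701 and 0.820 by edgeR with BH. Age changed 1.7% of all genes tested in vehicle and 0.96% in bexarotene mice. Neither exporter is in the authors' deposited table of aged against young vehicle cells, which lists 451 genes. The sum of border-associated macrophage markers was 851 to 971 CPM in aged vehicle and 1228 to 1494 CPM in young vehicle libraries, and the microglial sum was 55513 to 56528 and 61399 to 68757 CPM.

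Put in order of their mean levels, Abca1 went from young bexarotene (1005 CPM) through aged bexarotene (889 CPM) and aged stroke bexarotene (691 CPM) to the vehicle groups, which lay together at 465, 464 and 459 CPM in young, aged stroke and aged mice. The first pair of neighbours overlapped in their libraries and so did the next pair and all vehicle groups, so that the gap above the vehicle groups was the one break in the order. Abcg1 kept the same order among the bexarotene groups (486, 450 and 308 CPM). Its vehicle groups were ordered as aged stroke (126 CPM), young (103 CPM) and aged (95.8 CPM), and all its neighbours except young and aged bexarotene were free of overlap. Per kilobase of annotated exon (10363 bases for Abca1 on chromosome 4 and 7298 bases for Abcg1 on chromosome 17), Abca1 was the more abundant transcript in every group. The levels per kilobase were 97.0 CPM for Abca1 and 66.6 CPM for Abcg1 in young bexarotene libraries, 44.9 and 14.2 CPM in young vehicle, 85.8 and 61.7 CPM in aged bexarotene, 44.3 and 13.1 CPM in those of aged vehicle mice, 66.7 and 42.1 CPM in aged stroke bexarotene, and 44.8 and 17.3 CPM in aged stroke vehicle libraries.

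Because the 2 genes moved by different amounts, their balance within a library shifted, a measure that needs no scaling between libraries. For every 100 Abca1 counts there were 48.7 ± 7.19 Abcg1 counts in young bexarotene and 22.8 ± 4.30 in young vehicle libraries (SD, n = 3 each). Aged bexarotene libraries held 50.9 ± 8.03 and aged vehicle libraries 20.9 ± 0.911, and aged stroke bexarotene libraries held 44.4 ± 1.69 and aged stroke vehicle libraries 27.3 ± 2.79. In all settings the bexarotene libraries lay above the vehicle libraries without overlap. The mean log2 ratio was higher with bexarotene by 1.10 in young, 1.27 in aged and 0.71 in aged stroke mice, each with a two-sided exact permutation p of 0.1, the smallest that 3 against 3 libraries allow. Over all 3 settings together, with treatment permuted within each, the difference was 1.03 (two-sided exact permutation p = 0.00025, the smallest possible). With stroke the mean ratio was higher in vehicle and lower in bexarotene libraries. In vehicle libraries it was 27.3 with stroke and 20.9 without, with no overlap, and in bexarotene libraries 44.4 with stroke and 50.9 without, with overlap. The average difference over both treatments was 0.10 on the log2 scale (two-sided exact permutation p = 0.45). Whether stroke shifted the ratio within either treatment, or differently between them, was not tested.

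**Figure D3:**
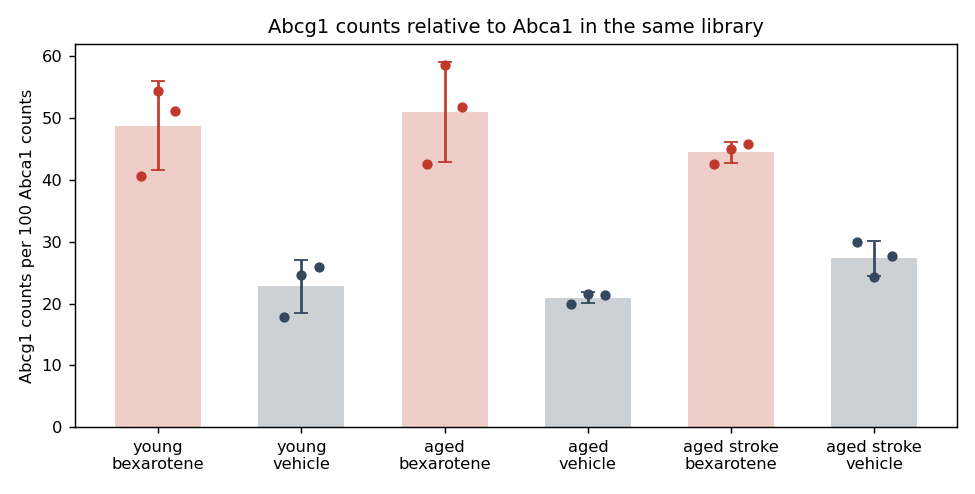
Abcg1 counts per 100 Abca1 counts in each library, with 1 point per library, bars at the group mean and lines for the SD over 3 libraries. Group means are 48.7, 50.9 and 44.4 with bexarotene and 22.8, 20.9 and 27.3 with vehicle in young, aged and aged stroke mice.

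The other genes nearest to the exporters in pattern were also genes with higher levels under bexarotene. By Pearson correlation of log2 CPM over all 18 libraries, a description over libraries that share the same 6 groups, Abca1 was closest to Camkk1 (r = 0.95), a kinase upstream of AMPK and CaMK signalling, then to Abcg1 (0.95), Eepd1 (0.93), Gm34466 (0.92), 1810043G02Rik (0.90) and the ephrin receptor gene Epha2 (0.89). Abcg1 was closest to Epha2 (0.95), the Ras-family exchange factor gene Rasgef1b (0.95), Abca1 (0.95), Eepd1 (0.94) and Gm34466 (0.91). Between Abca1 and Abcg1 the correlation was 0.95 over the 12 libraries without stroke and 0.97 over the 6 with stroke. Camkk1 averaged 78.9 CPM in young bexarotene and 18.2 CPM in young vehicle libraries, 81.9 and 21.8 CPM in aged bexarotene and aged vehicle, and 36.8 and 15.3 CPM in aged stroke bexarotene and aged stroke vehicle. Epha2 was called higher with bexarotene in all 3 settings (log2 fold changes 1.71 ± 0.17, 1.19 ± 0.17 and 0.97 ± 0.16 in young, aged and aged stroke mice). Camkk1 (2.11 ± 0.26 and 1.91 ± 0.25) and Rasgef1b (1.53 ± 0.15 and 1.05 ± 0.15) were called in young and aged mice without stroke, and 1810043G02Rik (0.59 ± 0.12) in young mice alone. In the fits that left out 1 library each, 1810043G02Rik lost its call in all 6 (0.48 to 0.65) and Epha2 in 5 of 6 after stroke (0.92 to 1.02). Gm34466 averaged no more than 1.42 CPM in any group and was not called with bexarotene.

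The other LXR-RXR targets gave the following counts. Of 15 tested genes (of 16 listed), 2 were called higher with bexarotene in young mice, 1 in aged mice and 0 after stroke by edgeR. Over all genes tested 0.419%, 0.238% and 0.0515% were called higher. At an unadjusted p under 0.05 there were 5, 6 and 5 of the 15, where the shares over all genes tested were 8.37%, 6.52% and 6.36%. DESeq2 called 4, 3 and 2 and limma voom 2, 1 and 0. Their median log2 fold changes were 0.13, 0.08 and 0.20, beside 0.00, 0.00 and 0.00 over all genes tested. Eepd1, an endonuclease-like protein known to support Abca1-dependent efflux in macrophages, rose in young mice (158 CPM with bexarotene and 26.5 CPM with vehicle, 2.58 ± 0.27) and in aged mice (115 and 20.5 CPM, 2.49 ± 0.27), and stood at 50.9 and 26.6 CPM after stroke (0.93 ± 0.25, adjusted p = 0.336, edgeR with BH). Arl4c, a small GTPase linked to Abca1 trafficking, rose in young mice (83.2 and 47.0 CPM, 0.82 ± 0.15). It lost that call without young vehicle replicate 2 or 3 or young bexarotene replicate 2 or 3 (0.70 to 0.84), and also in a fit to these groups alone. Mylip, a ubiquitin ligase that limits lipoprotein uptake, had 0.67 ± 0.16, 0.47 ± 0.16 and 0.82 ± 0.16 in young, aged and aged stroke mice and was not called by edgeR. Srebf1 (0.10, 0.30 and 0.06) and Apoe (0.31, -0.26 and 0.23) were not called either.

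**Figure D4:**
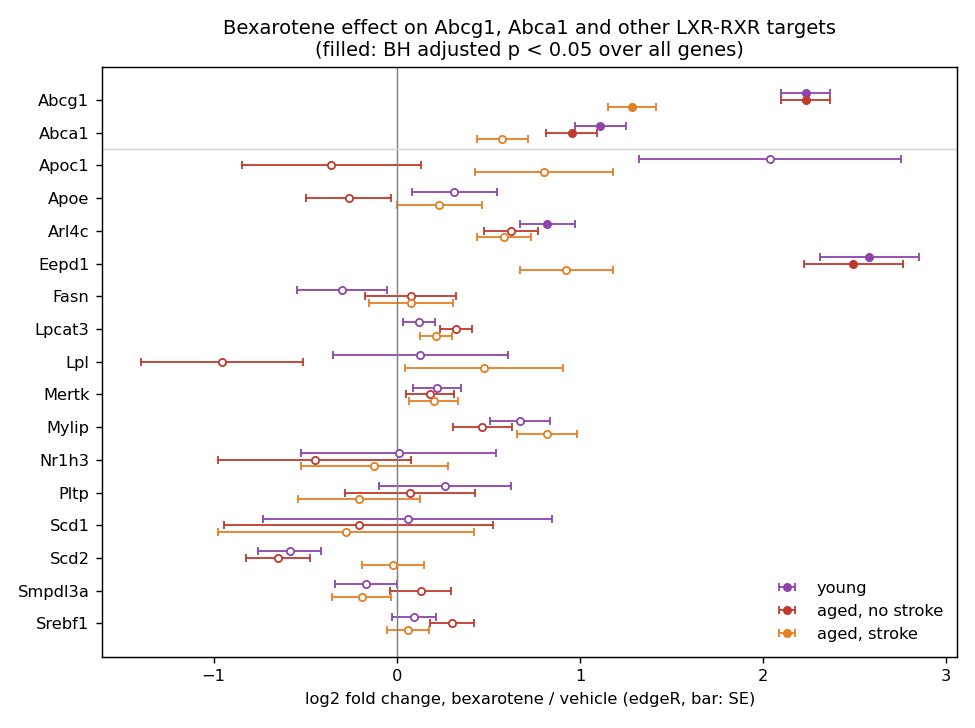
Log2 fold changes with bexarotene for Abcg1, Abca1 and the 15 other LXR-RXR targets tested, in young, aged and aged stroke mice, with SE bars and filled points at an adjusted p under 0.05 (edgeR with BH). Beside the exporters, filled points are those of Eepd1 in young and aged mice and of Arl4c in young mice.

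The receptors and their partners did not pass the test with bexarotene. Of 14 tested nuclear receptor genes (of 16 listed) edgeR called 0 in each setting (1, 2 and 1 at an unadjusted p under 0.05 in young, aged and aged stroke mice, and 0 by DESeq2 and limma voom). The shares called by edgeR over all genes tested were 0.509%, 0.258% and 0.058%, so 0 calls do not set this list apart. Nr1h2 averaged 68.9 CPM in young bexarotene and 62.7 CPM in young vehicle libraries, and Nr1h3 averaged 1.48 and 1.43 CPM. Rxra (87.2 and 92.5 CPM) and Rxrb (109 and 107 CPM) were likewise not called. With stroke, 7 of 14 were called higher and 3 lower in vehicle mice, where 48.3% of all genes were called and 21.1% were called lower. Nr1h3 rose to 11.9 CPM in aged stroke vehicle, against 1.59 CPM in aged vehicle libraries (2.90 ± 0.47), while Rxra (-0.71 ± 0.11) and Rxrb (-0.76 ± 0.10) fell. The retinoic acid receptor gene Rara (3.85 ± 0.40), Nr4a1 (4.03 ± 0.43) and the fatty acid sensor Pparg (3.15 ± 0.47) rose, and the thyroid hormone receptor gene Thrb fell (-2.73 ± 0.66). Of 14 corepressors and coactivators, Tbl1xr1, a subunit of the NCoR corepressor complex, was called lower with bexarotene in young mice (-0.61 ± 0.13), as were 0.0902% of all genes, a call lost without any 1 of the 6 libraries (-0.69 to -0.48). None of this list was called by edgeR, DESeq2 or limma voom with bexarotene in aged or aged stroke mice, with 1 at an unadjusted p under 0.05 in each. With stroke 5 were called lower in vehicle mice, led by Nrip1, Gps2, Ncoa2 and Crebbp.

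None of the relatives of the exporters passed the test with bexarotene. Of 20 listed genes of ABC subfamilies A and G, 10 passed the filter on low counts, and edgeR, DESeq2 and limma voom called 0 of them with bexarotene in each setting (0, 1 and 0 at an unadjusted p under 0.05). Their median log2 fold changes were -0.00 in young, -0.09 in aged and -0.13 in aged stroke mice. Over all genes tested edgeR called 0.509%, 0.258% and 0.058% in these settings. At such shares 0 calls in a short list do not set it apart from all genes. Abca7, the closest relative of Abca1, had 0.08, 0.19 and -0.26, and Abcg4, the relative of Abcg1 known from neurons, did not pass the filter. With stroke in vehicle mice 4 of the 10 were called, where 48.3% of all genes were. Abca7 rose (0.96 ± 0.17) and Abca9 (-1.68 ± 0.15), Abcg2 (-0.55 ± 0.12) and Abcg3 (-0.51 ± 0.20) fell. Abcg3 lost its call without any of 3 libraries (range over the 6 fits -0.68 to -0.33), with the replicate number as a block and in a fit to these groups alone.

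In other steps of cholesterol handling few genes were called with bexarotene. EdgeR called 0.509%, 0.258% and 0.058% of all genes tested in young, aged and aged stroke mice, so few calls are the rule in any list. Of 25 tested genes (of 26 listed) of SREBP2-driven synthesis and uptake, 0 were called by edgeR, DESeq2 or limma voom in any setting (0, 1 and 0 at an unadjusted p under 0.05), and Srebf2 itself had 0.03, 0.09 and -0.15. Of 7 tested acceptor and lipoprotein genes (of 12 listed) 0 were called by any of these tools (1, 0 and 1 at an unadjusted p under 0.05). Of 14 tested genes (of 15 listed) of lysosomal release, transfer and storage, Gramd1b, which carries cholesterol from the plasma membrane to the endoplasmic reticulum, rose in young mice (18.4 and 5.59 CPM, 1.69 ± 0.29). EdgeR, DESeq2 and limma voom called 0 of them in aged and in aged stroke mice (2 and 2 at an unadjusted p under 0.05). The lysosomal exporter Npc1 had 0.06, -0.06 and -0.10. Of 5 tested oxysterol genes (of 8 listed), Gpr183, the receptor for an oxysterol that guides immune cells, fell in young mice (224 and 417 CPM, -0.90 ± 0.14) and was not called by edgeR in aged (-0.67 ± 0.14) or aged stroke mice (-0.64 ± 0.14), where DESeq2 called 1 gene of the list each and limma voom 0 and 1. The Gpr183 call was lost in a fit to the young groups alone (adjusted p = 0.0679, edgeR with BH, the highest of a range that began at 6.39e-09).

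With stroke in vehicle mice 48.3% of all genes tested were called, 27.2% higher, so that many calls in any list come with this comparison. Calls went to 13 of 25 synthesis and uptake genes, 9 of 14 storage and transfer genes, 9 of 15 LXR-RXR targets, 4 of 5 oxysterol genes and 3 of 7 acceptor genes. Ch25h, which makes 25-hydroxycholesterol, an LXR ligand, rose to 162 CPM in aged stroke vehicle, against 9.45 CPM in aged vehicle libraries (4.10 ± 0.35), and Cyp39a1, which acts on 24-hydroxycholesterol, rose too (2.71 ± 0.73). Cyp27a1, which makes 27-hydroxycholesterol, fell (-0.64 ± 0.19), a call lost without either of 2 libraries (range over the 6 fits -0.93 to -0.49), and Gpr183 fell (-0.85 ± 0.14). Of the 25 synthesis and uptake genes 12 rose, among them Sqle (1.25 ± 0.18), an enzyme of sterol synthesis, and Insig1 (1.01 ± 0.19), which holds the SREBP complex in the endoplasmic reticulum, and the SREBP escort Scap fell (-0.61 ± 0.11). Of the 14 storage and transfer genes 6 rose, including the lipid droplet coat Plin2 (3.33 ± 0.27), the cholesterol ester hydrolases Nceh1 (2.18 ± 0.22) and Lipa (0.47 ± 0.10), and Soat1, which forms cholesterol esters (0.95 ± 0.12), while Osbpl1a, Stard3 and Gramd1a fell. Gramd1a (-0.48 ± 0.16) lost its call without aged vehicle replicate 1 or aged stroke vehicle replicate 1 or 3 (-0.64 to -0.35 over the 6 fits), and Stard3 (-0.32 ± 0.10) without aged stroke vehicle replicate 3 (-0.24) and with no filter on low counts. Of the 15 LXR-RXR targets 6 rose, led by Smpdl3a (2.41 ± 0.17), Nr1h3 and Apoc1 (2.16 ± 0.43), and Mertk (-1.17 ± 0.13), Mylip (-1.16 ± 0.16) and Lpcat3 (-0.48 ± 0.09) fell. Beside these stand the log2 fold changes of 0.02 for Abca1 and 0.40 for Abcg1. The median over all genes tested was 0.02 in this comparison, and over the lists it was 0.29 for synthesis and uptake, 0.22 for storage and transfer, 0.38 for the LXR-RXR targets, 1.28 for the acceptor genes and -0.64 for the oxysterol genes.

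Of the nearest tested genes on either side of the exporters, a noncoding RNA alone was called with bexarotene, in young mice. Genes that did not pass the filter on low counts were skipped, so untested genes may lie between those named. In the order of GENCODE M21, the nearest tested genes around Abca1 are Smc2 and Nipsnap3b on one side and Mexis and Slc44a1 on the other. Around Abcg1 they are AC165962.1, Glo1, Rsph1 and Slc37a1. Mexis (ENSMUSG00000086712), singled out after its values were seen, is a noncoding RNA induced by LXR in mouse macrophages and known to enhance Abca1 transcription. It had 9, 28 and 60 counts in the young bexarotene libraries, against 7, 0 and 4 in the young vehicle libraries, and 19, 24 and 28 in the aged bexarotene libraries, against 2, 11 and 5 in the aged vehicle libraries. With stroke it had 364, 179 and 214 counts in bexarotene and 96, 112 and 176 in vehicle libraries. All bexarotene libraries were the higher ones in each setting. That held for 7.09%, 6.47% and 5.81% of all genes tested in young, aged and aged stroke mice. The nearest bexarotene and vehicle libraries were at 0.924 and 0.668 CPM in young, 1.96 and 1.08 CPM in aged, and 9.92 and 9.24 CPM in aged stroke mice. In young mice it passed the threshold narrowly (3.15 ± 0.69, adjusted p = 0.0487, edgeR with BH), and it did not with the replicate number as a block (3.04, adjusted p = 0.0576), by limma voom (3.18, adjusted p = 0.479), with library totals alone or without any of 5 of the 6 libraries (2.49 to 3.95 over all 6). Over all alternatives its adjusted p ran from 5.15e-08 to 0.479. The authors' deposited table for young mice lists Mexis with a log2 fold change of 0.49 ± 0.90 SE and an adjusted p of 0.0180. An SE above the estimate is at odds with that adjusted p. The 0.49 may therefore not be on the same scale as the 3.15 from edgeR. In aged and aged stroke mice it had 1.97 ± 0.65 and 0.72 ± 0.48 and was not called. Stroke in vehicle mice raised it (6.93 CPM in aged stroke vehicle and 0.579 CPM in aged vehicle libraries, 3.58 ± 0.62), alongside Smc2 (2.34 ± 0.18), Nipsnap3b (0.59 ± 0.12) and Slc44a1 (0.34 ± 0.13). In that comparison 27.2% of all genes tested were called higher. Stroke values of the genes around Abcg1 are not reported here.

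**Figure D5:**
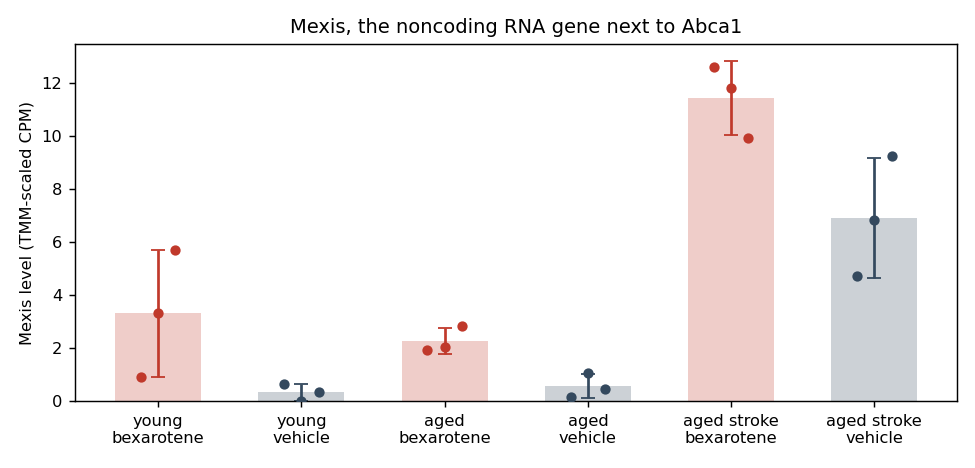
The noncoding RNA gene Mexis, which neighbours Abca1, in TMM-scaled CPM, with 1 point per library, bars at the group mean and lines for the SD over 3 libraries. Means are 3.33, 2.28 and 11.4 CPM with bexarotene and 0.339, 0.579 and 6.93 CPM with vehicle in young, aged and aged stroke mice.

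The authors' deposited tables, made with a tool that is not stated, also list both exporters in every bexarotene comparison. For Abcg1 they give log2 fold changes of 2.20 in young, 2.20 in aged and 1.22 in aged stroke mice, at rank 1 of 197, 2 of 149 and 3 of 96 listed genes by p. For Abca1 the authors' deposited tables give 1.03, 0.92 and 0.52, at ranks 16, 8 and 42.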

How the data were processed

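RNA was measured in 18 libraries of CD11b-selected mouse brain cells. The authors deposited whole-number counts per gene, not normalized, and tables of their own comparisons with a mean of normalized counts (a signal that is never negative), log2 fold changes, their standard errors (kept here as a score) and p-values. Those tables list genes with an adjusted p under 0.05. The submitters' processing notes name GRCm39 as the build and list STAR 2.7.10a, Trimmomatic 0.40, R 4.4.2 and GATK. They do not state an annotation or strand handling, so reads of overlapping genes cannot be told apart. Symbols, exon lengths and gene order came from GENCODE M21 (GRCm38), which named 52029 of 57010 genes, and promoter and miRNA sequences came from RefSeq (GRCm38.p6).

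Counts were fitted with edgeR 4.0.16 (filterByExpr, 15528 genes, TMM, robust quasi-likelihood, all 18 libraries, 12 residual degrees of freedom), with limma 3.58.1 and DESeq2 1.42.0 as alternatives, on R 4.3.3. P-values were adjusted over all genes tested. The scripts were tested on simulated data. Counts of the exporters are large enough that counting error is small beside the spread between libraries. No library pair of a group agreed within sampling noise (chi-square per degree of freedom at least 5.77). The ratio of both exporters was tested by exact permutation, on Python 3.11.15 with SciPy 1.17.1.

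Named genes were the exporters, the 6 most correlated genes of each (log2 CPM, prior count 2), up to 4 called genes per list and comparison with the lowest p, and a short set given called or not. A few genes that this rule names are not reported here. The members and lists were chosen with earlier results of these data known. Same-numbered libraries deviated together in the young bexarotene comparison (r of 0.26, 0.28 and 0.14) and between aged and young bexarotene mice (0.11, 0.30 and 0.13). Their r was also above 0 throughout with stroke, in vehicle (0.21, 0.06 and 0.03) and in bexarotene mice (0.13, 0.12 and 0.03). In the other comparisons it was below 0 for replicate 3. Other tools, scalings and filters, the block and left-out libraries were tried as alternatives.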

Additional observations from a re-analysis of the deposited data

How the results depend on the processing

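Of 332 values of Abca1, Abcg1 and their ratio under other settings, 299 kept their direction and side of the threshold. These include the ratio tests within 1 setting, which cannot reach a p under 0.1, so their side of the threshold was fixed. With no filter on low counts, edgeR with BH called Abca1 higher with bexarotene after stroke (0.57, adjusted p = 0.00289), as DESeq2 did (0.57). The stroke difference of the Abcg1 effect was likewise called by DESeq2 (-0.94) and with no filter (-0.94, adjusted p = 2.50e-04, edgeR with BH). Upper quartile factors ended the Abcg1 call with stroke in vehicle mice (0.26). Left-out libraries gave ranges of 0.31 to 0.46 there, 0.87 to 1.04 for Abca1 with bexarotene in aged mice, and -0.47 to -0.28 for Abca1 with stroke under bexarotene, and each range included lost calls. Values near 0 changed sign with no call. Abca1 with age in vehicle mice was 9.68e-04 by DESeq2, 9.92e-04 with median-ratio factors, 0.0123 with upper quartile factors and 0.0147 with no filter (-0.12 to 0.15 over left-out libraries). Abca1 with stroke in vehicle mice was -0.00914 by DESeq2, -0.00913 with median-ratio factors, -0.13 with upper quartile factors and -0.0403 with library totals alone (-0.0881 to 0.0618). The aged minus young effect of Abcg1 was -8.65e-04 with upper quartile factors, -0.00541 with the replicate block and -0.00438 in a fit to these groups alone (-0.10 to 0.12), and Abcg1 with age in bexarotene mice ran from -0.215 to 0.00949. The cause of these shifts was not tested.

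The replicate block changed no call of Abca1, Abcg1 or a gene named here as called with bexarotene, except that of Mexis. Other genes called with bexarotene were not followed singly under the block. The number of genes called with bexarotene was 79, 40 and 9 in young, aged and aged stroke mice. It was 209, 91 and 59 by DESeq2, 54, 18 and 28 by limma voom, 457, 339 and 419 with no filter, and 20 after stroke with the block. The cause was not tested. Differences of effects called 0 genes by edgeR (456 and 638 at an unadjusted p under 0.05, 2.94% and 4.11% of all genes tested), 5 and 9 by DESeq2, and 138 and 256 with no filter. With 3 libraries a group, the interval of a log2 fold change spanned about 0.3 to either side for both exporters.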
